A study of Mus musculus with 12 samples.

Results

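Transcript counts of 5 target genes of the transcription factor p53, Cdkn1a, Mdm2, Ccng1, Bax and Gadd45a, were followed in mouse dorsal root ganglia (DRG). The RNA was either recovered with ribosomes tagged in sensory neurons or that of the whole lysate. The genes were taken by name, as targets of p53, and looked up by their Ensembl gene IDs. All 5 were among the 9073 genes of the deposited table, and all 5 passed the filter on low counts that left 8312 genes for testing. The labels give 4 groups, named IP shGpr151, IP control, Input shGpr151 and Input control. Every group carries the genotype RPL22HA+/+;Advillin-Cre+ in adult neurons, so the haemagglutinin (HA) tag on ribosomal protein L22 is confined to cells in which Advillin-Cre, a sensory neuron driver, was active. The treatments are AAV-shGpr151 and AAV-control, where AAV is an adeno-associated virus used for gene delivery. IP is RNA recovered with an anti-HA antibody from ganglion lysate, and Input is the RNA of the lysate itself. By the series' design text, all neurons came from mice whose sciatic nerve had been injured beforehand and were cultured, whereas the protocol speaks of ganglia collected fresh, and the labels give neither the time after injury nor the number of animals.

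In mammals p53 is a stress-activated transcription factor that DNA damage, oncogenic signals and several other insults stabilise. Its targets fall into roles that are represented here: an inhibitor of cyclin-dependent kinases that halts the cell cycle (Cdkn1a, the protein p21), a ubiquitin ligase that marks p53 itself for degradation and so closes a feedback loop (Mdm2), a cyclin that recruits the phosphatase PP2A to Mdm2 (Ccng1, cyclin G1), a pore-forming protein of the outer mitochondrial membrane that starts apoptosis (Bax), and a stress sensor that feeds into p38 and JNK kinase signalling (Gadd45a). DRG neurons have left the cell cycle. Cdkn1a and Gadd45a are nonetheless known in rodents as genes whose transcripts increase in these neurons after a peripheral axon is cut, and Gadd45a, like Cdkn1a, also responds to signals that do not pass through p53.

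Paired decamers are known as DNA sites that p53 binds. The stretches of DNA in front of the annotated transcription starts are shown where they hold a p53-type pair. Each is the 250 bases upstream of a RefSeq start of build GRCm38.p6, written 5′ to 3′ in the direction of transcription. Capitals mark the best match to a pair of p53 decamers, searched with a spacer of 0 or 1 base, the C and G of each decamer core kept, and at most 2 mismatches allowed. The decamer consensus is its own reverse complement, so the search covers both strands. The search settings were chosen after these windows had been read.

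Cdkn1a, first start (chr17:29090729-29090978, + strand): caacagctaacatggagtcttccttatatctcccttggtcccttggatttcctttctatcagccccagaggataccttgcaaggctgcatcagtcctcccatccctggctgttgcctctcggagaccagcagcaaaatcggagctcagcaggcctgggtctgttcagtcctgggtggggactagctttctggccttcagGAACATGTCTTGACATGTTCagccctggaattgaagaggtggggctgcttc
Ccng1 (chr11:40755287-40755536, - strand): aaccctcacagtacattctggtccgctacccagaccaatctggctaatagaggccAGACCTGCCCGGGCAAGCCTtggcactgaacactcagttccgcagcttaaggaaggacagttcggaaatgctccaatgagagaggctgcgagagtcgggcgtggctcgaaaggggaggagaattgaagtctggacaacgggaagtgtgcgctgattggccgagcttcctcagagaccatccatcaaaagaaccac
Bax (chr7:45466899-45467148, - strand): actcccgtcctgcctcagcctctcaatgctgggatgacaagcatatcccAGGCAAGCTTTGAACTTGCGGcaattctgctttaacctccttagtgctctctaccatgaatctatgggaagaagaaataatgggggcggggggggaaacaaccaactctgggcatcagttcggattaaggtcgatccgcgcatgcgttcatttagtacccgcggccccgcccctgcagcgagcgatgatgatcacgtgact

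In the Cdkn1a window the match lay at positions -51 to -32 from the start and had 1 mismatch. The match of Ccng1 lay at -195 to -176, also with 1 mismatch, and that of Bax at -201 to -181 with 2 mismatches and a spacer of 1 base. The windows of Mdm2 and Gadd45a, and that of the second annotated start of Cdkn1a, held no such pair, which says only that these letters are not in these windows. Of 32851 windows of the same length over all genes, 0.551% held a pair by these settings. As the settings were chosen after the windows shown had been read, nothing is read from setting their matches beside this share. Single decamers without a mismatch, which 7.13% of these windows held, started at -186 for Mdm2 and at -40 for Gadd45a. A match is a description of the letters and was not measured as a binding site. The counts are per gene, so transcripts from the 2 starts of Cdkn1a are not separated.

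Each group has 3 columns of counts, and these differed by little more than the noise of counting. Chi-square divided by its degrees of freedom was 0.980 to 1.05 in the 12 pairs of columns of the same group, against 1.80 to 156 in the 54 pairs between groups. Each group was therefore counted as 1 sample, a library made of its summed columns, so n = 1 per group and no difference below has a replicate check. The labels do not say whether the 3 samples of a group came from separate animals or cultures. The libraries held 3285258 counts for IP shGpr151, 4245486 for IP control, 6148538 for Input shGpr151 and 6332991 for Input control. Intervals are at 95% and cover counting error only, since amplified copies cannot be told from separate molecules in a kit with no molecular identifiers. The word "called" refers to the quasi-likelihood test of edgeR, run on all 12 columns, with the Benjamini-Hochberg adjusted value over 8312 genes at or under 0.05, a test that compares these libraries and not the treatments. The gene aimed at by the hairpin, Gpr151, had 96, 65 and 89 counts in IP shGpr151 against 107, 109 and 98 in IP control, or 76.1 and 74.0 CPM, which is the count scaled to a library total of 1000000. It had 4, 4 and 5 counts in Input shGpr151 against 10, 8 and 6 in Input control. Neither difference was called, and in IP the count does not bear out the label, so the libraries are called by their labels here.

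As a share of all counts, sensory neuron markers stood higher in IP than in Input, and so did some markers of other cells, given below. All 18 of 18 listed markers, among them Prph, Tubb3 and Scn9a, were in the table, and their summed level was 20979 CPM in IP shGpr151 and 21935 CPM in IP control, against 1871 CPM in Input shGpr151 and 1653 CPM in Input control. Of the markers of other cells, 10 of 10 satellite glia, 8 of 10 Schwann cell, 11 of 12 macrophage, 8 of 10 fibroblast, 7 of 9 endothelial and mural and 12 of 12 dividing-cell markers were in the table. The dividing-cell list includes Stmn1, which is not confined to dividing cells. Its share of the summed levels below was not computed. The table holds only genes with at least 1 count in every column, so a level of 0 could not appear, and Prx, Ncmap, Cd74, Pdgfra, Fbln1, Pecam1 and Esam, which are not among its genes, were not analysed here. Between the treatments the summed satellite glia markers were 4424 CPM in IP shGpr151 against 4506 CPM in IP control, and 4983 CPM in Input shGpr151 against 5356 CPM in Input control. In bulk RNA such as this, fewer cells of a type and less RNA per cell cannot be told apart.

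Cdkn1a (ENSMUSG00000023067) was lower in the IP library labelled shGpr151 than in IP control. The 3 columns of IP shGpr151 held 263, 231 and 239 counts, or 240.2, 211 and 218 CPM. The 3 columns of IP control held 397, 393 and 410 counts, or 280.5, 278 and 289.7 CPM. Every column of IP shGpr151 thus lay below every column of IP control. The columns are no replicates, so this repeats the difference between the summed libraries. The share of all tested genes with columns so separated was not computed. The summed level was 223 CPM (207 to 239.9) in IP shGpr151 against 283 CPM (267 to 299) in IP control. On library sizes scaled by the trimmed mean of M values (TMM), which centres the bulk of the genes, the log2 ratio was -0.38 (-0.52 to -0.25), a 1.31-fold lower level, and the gene was called.

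In Input the same transcript was not called between the treatments. Input shGpr151 had 121, 124 and 111 Cdkn1a counts, or 59.0, 60.5 and 54.2 CPM. Input control had 129, 127 and 124 counts, or 61.1, 60.1 and 58.7 CPM. The columns overlapped, and the log2 ratio of -0.07 (-0.29 to 0.14) was not called. In descending order the Cdkn1a levels were 283 CPM in IP control, 223 CPM in IP shGpr151, 60.0 CPM in Input control and 57.9 CPM in Input shGpr151, and of these neighbours only the Input pair had overlapping intervals. Subtracting the Input ratio of Cdkn1a from its IP ratio gave -0.31 (-0.56 to -0.06), which was not called. With size factors by the median of ratios that value was -0.36 and was called. It was also called without the first column of IP shGpr151 (-0.44) or the last (-0.37), or without the first (-0.39), second (-0.39) or last (-0.37) of IP control.

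Of the 5 genes, Cdkn1a was the 1 called between the IP libraries, while 8.69% of all tested genes were called in that comparison with 3.72% called higher and 4.97% lower. By size alone, 0 of the 5 genes passed 1.5-fold, and 5.88% of all tested genes did. Among the 1274 tested genes with at least 1000 counts over the 2 IP libraries together, 10 genes, Cdkn1a included, had a ratio at or below that of Cdkn1a (0.785%), a comparison chosen after the value was seen. Over all tested genes that share was 6.97%. Leaving out any 1 column kept the log2 ratio of Cdkn1a between -0.46 and -0.37, with the call. As the columns of a group differ by little more than counting noise, this is no replicate check. When each group was entered as a single library and a biological coefficient of variation (BCV) of 10% was assumed, Cdkn1a was not called. Summed markers of sensory neurons stood at 20774 to 21121 CPM in the columns of IP shGpr151 and 21910 to 21949 CPM in those of IP control, with 2 of 18 called higher and 4 lower. Those of dividing cells stood at 1809 to 1954 CPM in IP shGpr151 and 1912 to 1986 CPM in IP control, with 0 of 12 called higher and 1 lower. Fibroblast markers were at 2258 to 2317 CPM in IP shGpr151 and 2115 to 2219 CPM in IP control, with 4 of 8 called higher and 1 lower. The part of these markers in the Cdkn1a result was not tested.

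**Figure D1:**
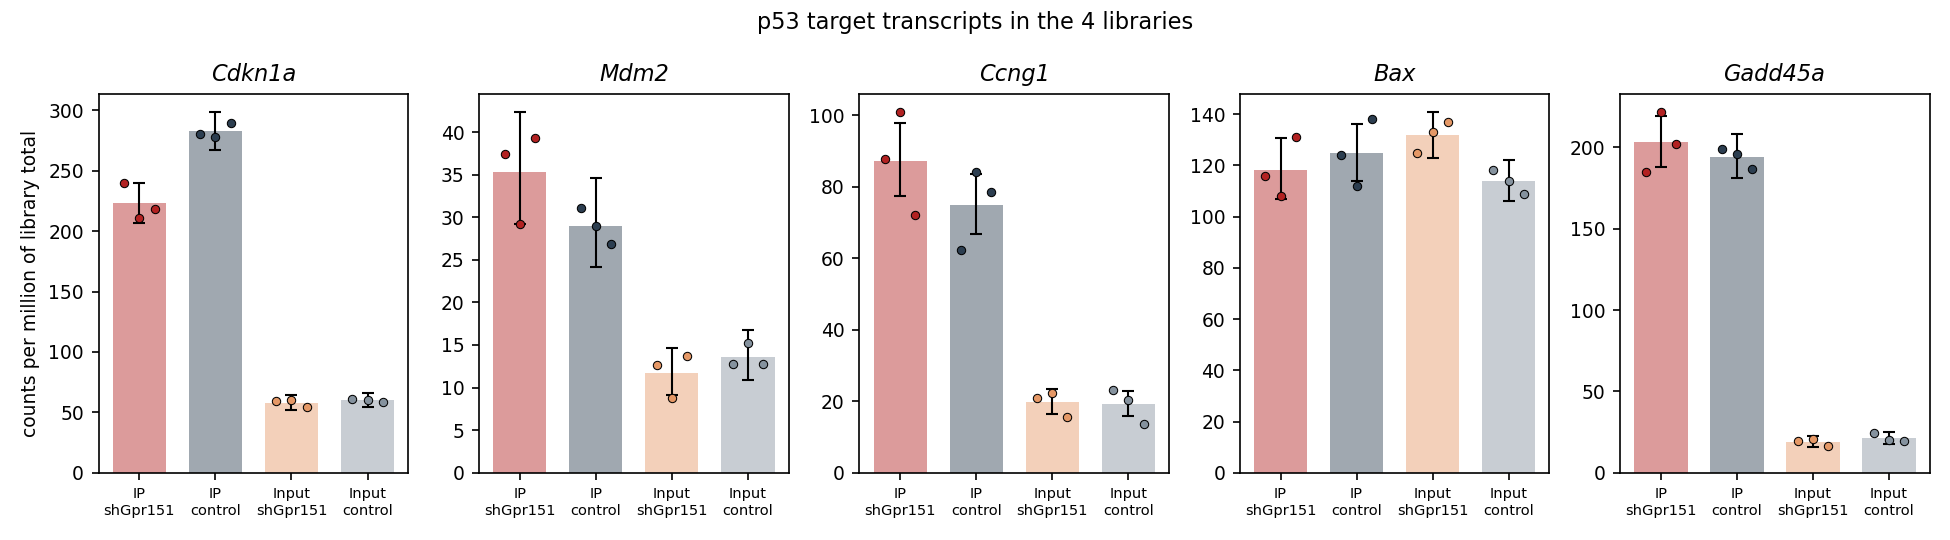
Levels of the 5 p53 target transcripts in CPM of the library total (y axis, each panel from 0 on its own scale) in the libraries labelled IP shGpr151, IP control, Input shGpr151 and Input control (x axis). Bars are summed columns with exact Poisson 95% intervals and points are the 3 columns; Cdkn1a in IP shGpr151 (223 CPM) lies below IP control (283 CPM), and the Bax levels lie between 114 and 132 CPM in all 4 libraries.

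The feedback ligase Mdm2 (ENSMUSG00000020184) had few counts and wide intervals. IP shGpr151 held 41, 32 and 43 Mdm2 counts, and IP control held 44, 41 and 38. In CPM these were 37.4, 29.2 and 39.3 in IP shGpr151 against 31.1, 29.0 and 26.8 in IP control. The columns overlapped, and the log2 ratio of 0.24 (-0.14 to 0.62) was not called. Input shGpr151 held 26, 18 and 28 counts against 27, 32 and 27 in Input control, with a log2 ratio of -0.24 (-0.71 to 0.23), also not called. At this depth a 1.5-fold difference in either fraction was not excluded by the interval in the direction in which the value lay.

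Ccng1 (ENSMUSG00000020326), which encodes the cyclin that works on Mdm2 through PP2A, held 96, 111 and 79 counts in IP shGpr151 and 88, 119 and 111 in IP control. Its summed level was 87.1 CPM (77.3 to 97.8) in IP shGpr151 against 74.9 CPM (66.9 to 83.6) in IP control. The log2 ratio of 0.17 (-0.06 to 0.41) was not called and its columns overlapped. In Input there were 43, 46 and 32 counts in Input shGpr151 and 49, 43 and 29 in Input control, the same sum of 121 in both. These columns overlapped, and the log2 ratio of 0.02 (-0.35 to 0.40) was not called.

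Bax (ENSMUSG00000003873), the apoptotic pore protein, held 127, 118 and 143 counts in IP shGpr151 and 176, 158 and 195 in IP control. The summed level was 118 CPM (107 to 130.5) in IP shGpr151 against 125 CPM (114 to 136) in IP control, and the Bax log2 ratio of -0.12 (-0.31 to 0.07) missed the threshold. Input shGpr151 held 256, 272 and 281 Bax counts (125, 133 and 137 CPM) against 250, 241 and 230 counts (118, 114 and 109 CPM) in Input control. These Input columns did not overlap, which again is no replicate check, and the share of all tested genes was not computed. The log2 ratio there was 0.19 (0.04 to 0.33), which was not called, and it was called with size factors by the median of ratios, on library totals and with the Input groups fitted alone, at 0.21 to 0.22, as well as at 0.24 without any 1 column of either IP library. Summed dividing-cell markers were 925 CPM in Input shGpr151 against 752 CPM in Input control, with 6 of 12 called higher and 2 lower, Stmn1 among those called. Summed endothelial and mural markers were 228 CPM in Input shGpr151 against 171 CPM in Input control, with 3 of 6 called higher and 0 lower. Other markers went the other way in Input. Satellite glia markers had 1 of 9 called higher and 5 lower, fibroblast markers 0 of 8 and 3, and Schwann cell markers 0 of 7 and 2. Sensory neuron markers had 2 of 18 called higher and 2 lower, and macrophage markers 0 of 11 either way. Of all tested genes 8.31% were called higher and 8.66% lower in Input. The part of these markers in the Bax values was not tested. Subtracting the Input ratio of Bax from its IP ratio gave -0.31 (-0.55 to -0.07), not called, though it was called with size factors by the median of ratios (-0.35) and without the last column of IP shGpr151 (-0.46) or the first (-0.38) or second (-0.45) of IP control.

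Gadd45a (ENSMUSG00000036390), the stress sensor, held 202, 243 and 221 counts in IP shGpr151 and 281, 277 and 265 in IP control. In CPM these were 185, 222 and 202 in IP shGpr151 against 199, 196 and 187 in IP control, and the columns overlapped. The log2 ratio was 0.02 (-0.13 to 0.17) and was not called; its interval excludes a 1.5-fold difference either way. Input shGpr151 held 40, 43 and 34 counts against 51, 42 and 41 in Input control, with overlapping CPM and a log2 ratio of -0.17 (-0.54 to 0.19), not called.

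In descending order the levels of Mdm2 were 35.3 CPM in IP shGpr151, 29.0 CPM in IP control, 13.6 CPM in Input control and 11.7 CPM in Input shGpr151. Those of Ccng1 were 87.1 CPM in IP shGpr151, 74.9 CPM in IP control, 19.7 CPM in Input shGpr151 and 19.1 CPM in Input control. Gadd45a followed with 203 CPM in IP shGpr151, 194 CPM in IP control, 21.2 CPM in Input control and 19.0 CPM in Input shGpr151. For each of these 3 genes the IP pair had overlapping intervals, as did the Input pair, and a gap lay between IP and Input. Bax had a different order, with 132 CPM in Input shGpr151, 125 CPM in IP control, 118 CPM in IP shGpr151 and 114 CPM in Input control, and every neighbouring pair overlapped.

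In Input, edgeR called 0 of the 5 genes, DESeq2 0 and limma-voom 0, and 1 of 5, Bax, had an unadjusted p under 0.05; 17.0% of all tested genes were called there, 8.31% higher and 8.66% lower, and 22.7% passed 1.5-fold, which 0 of the 5 did. The difference between the fractions was called for 0 of 5 by edgeR, DESeq2 and limma-voom alike, against 14.2% of all tested genes, 5.41% higher and 8.82% lower, and 2 of 5, Cdkn1a and Bax, had an unadjusted p under 0.05. Within a library, the count of Cdkn1a can be set against that of another target without any scaling of the libraries, a comparison added after the values were seen. The ratio of Cdkn1a to Gadd45a counts was 1.10 in IP shGpr151 against 1.46 in IP control, a log2 difference of -0.41 (-0.60 to -0.21). The ratio of Cdkn1a to Ccng1 counts was 2.56 in IP shGpr151 against 3.77 in IP control, a difference of -0.56 (-0.82 to -0.29). Against Bax the difference was -0.26 (-0.49 to -0.03) and against Mdm2 -0.63 (-1.02 to -0.24). Each of these 4 values rests on the same Cdkn1a counts. In Input the difference was -0.26 (-0.51 to -0.01) against Bax, the same size as in IP, and 0.10 (-0.31 to 0.52) against Gadd45a, -0.09 (-0.51 to 0.32) against Ccng1 and 0.16 (-0.34 to 0.66) against Mdm2.

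**Figure D2:**
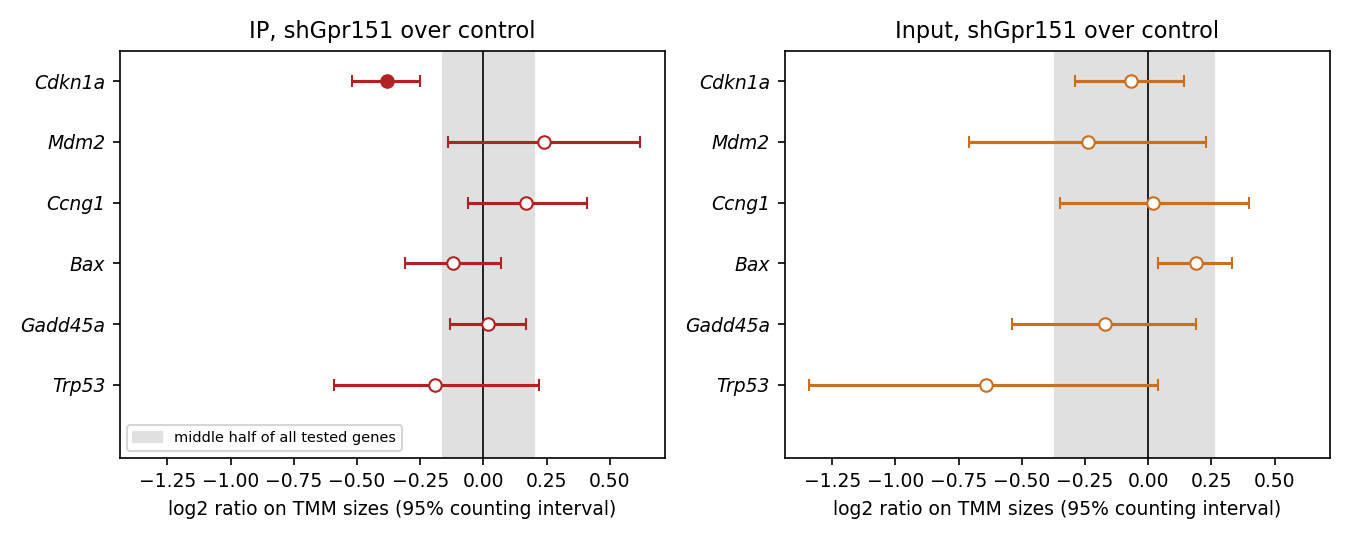
Log2 ratios of shGpr151 over control on TMM sizes (x axis) for the 5 p53 targets and for Trp53, the p53 gene (y axis), in IP (left) and Input (right), as labelled. Points carry 95% counting intervals, filled points were called by edgeR and the grey band spans the interquartile range of all tested genes; Cdkn1a in IP, at -0.38, is the 1 filled point.

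The comparison of IP with Input asks which of these transcripts were recovered with the tagged ribosomes. Its direction depends on the scale for most of the 5 genes, since TMM sizes shift log2 ratios by -2.20 in shGpr151 and -2.18 in control relative to library totals. Relative to the bulk of the genes, on TMM sizes, Gadd45a was higher in IP and Bax and Mdm2 were lower. On library totals Cdkn1a, Mdm2, Ccng1 and Gadd45a were called higher in IP with either treatment. Under both scales Gadd45a was the most enriched and Bax the least.

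Gadd45a stood at 203 CPM (188 to 219) in IP shGpr151 against 19.0 CPM (15.7 to 22.8) in Input shGpr151, and at 194 CPM (181 to 208) in IP control against 21.2 CPM (17.7 to 25.1) in Input control. On TMM sizes the log2 ratio was 1.22 (0.93 to 1.51) in shGpr151 and 1.02 (0.76 to 1.30) in control, both called higher, and on library totals 3.42 and 3.20. Bax stood at 118 CPM in IP shGpr151 against 132 CPM (123 to 141) in Input shGpr151, and at 125 CPM in IP control against 114 CPM (106 to 122) in Input control. Its log2 ratio was -2.35 (-2.53 to -2.17) in shGpr151 and -2.04 (-2.21 to -1.88) in control on TMM sizes, both called lower. On library totals the Bax values were -0.15 and 0.13, neither called, so Bax was depleted relative to the bulk of the genes and not as a share of all counts.

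The count ratio of Bax to Gadd45a, which no scaling of the libraries moves, was 0.58 in IP shGpr151 against 6.91 in Input shGpr151, and 0.64 in IP control against 5.38 in Input control. The log2 differences were -3.57 (-3.90 to -3.24) in shGpr151 and -3.07 (-3.37 to -2.76) in control. The other 3 genes lay between. Cdkn1a had log2 ratios of -0.25 (-0.43 to -0.06) in shGpr151, called lower, and 0.06 (-0.10 to 0.23) in control, not called, on TMM sizes, and 1.95 and 2.24 on library totals. The control value was called higher, at 0.20, when genes were kept at a mean of at least 20 counts. The shGpr151 value was not called when genes were kept at a mean of at least 20 counts (-0.03) or without a filter (-0.17), nor without the second column of IP shGpr151 (-0.19) or the last (-0.22), the first column of Input shGpr151 (-0.24) or the second (-0.21). Mdm2 had -0.60 (-1.04 to -0.16) in shGpr151 and -1.08 (-1.49 to -0.67) in control on TMM sizes, both called lower, against 1.59 and 1.10 on library totals. The shGpr151 call of Mdm2 ended at a mean of at least 20 counts (-0.38) and without the second column of IP shGpr151 (-0.46) or the first (-0.54) or last (-0.48) of Input shGpr151. Ccng1 had -0.05 (-0.36 to 0.27) and -0.20 (-0.51 to 0.11), not called, against 2.15 and 1.97 on library totals.

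On TMM sizes 4 of the 5 genes were called between IP and Input in shGpr151 and 3 of 5 in control. Of all tested genes 66.6% were called in shGpr151 (33.6% higher and 33.0% lower) and 65.3% in control (32.5% higher and 32.8% lower), while 70.5% and 67.8% passed 1.5-fold, so nothing is read from these counts. The macrophage markers, which should not carry the tag, had 2 of 11 called higher and 9 lower in shGpr151 and 1 higher and 9 lower in control on the same scale, and the sensory neuron markers 17 of 18 higher in shGpr151 and 18 of 18 in control. Satellite glia markers had 4 of 9 called higher and 4 lower in shGpr151 and 2 higher and 6 lower in control. Fibroblast markers had 4 of 8 higher and 3 lower in shGpr151 and 3 higher and 4 lower in control, and Schwann cell markers 2 of 7 higher and 3 lower in each. For vessels, 0 of 6 markers of endothelial and mural cells were called higher and 3 lower with either treatment. Summed fibroblast markers were 2278 CPM in IP shGpr151 against 941 CPM in Input shGpr151, and 2166 CPM in IP control against 1078 CPM in Input control. Summed dividing-cell markers, Stmn1 included, were 1880 CPM in IP shGpr151 against 925 CPM in Input shGpr151, and 1953 CPM in IP control against 752 CPM in Input control. On TMM sizes 3 of these 12 were called higher and 8 lower in shGpr151, and 2 higher and 8 lower in control. Summed Schwann cell markers were 1295 CPM in IP against 375 CPM in Input in shGpr151, and 1376 against 437 CPM in control. Summed macrophage markers were 588 CPM in IP against 497 CPM in Input in shGpr151, and 558 against 469.8 CPM in control. Whether transcripts of other cells in the pulldown bear on the values of the p53 targets was not tested.

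**Figure D3:**
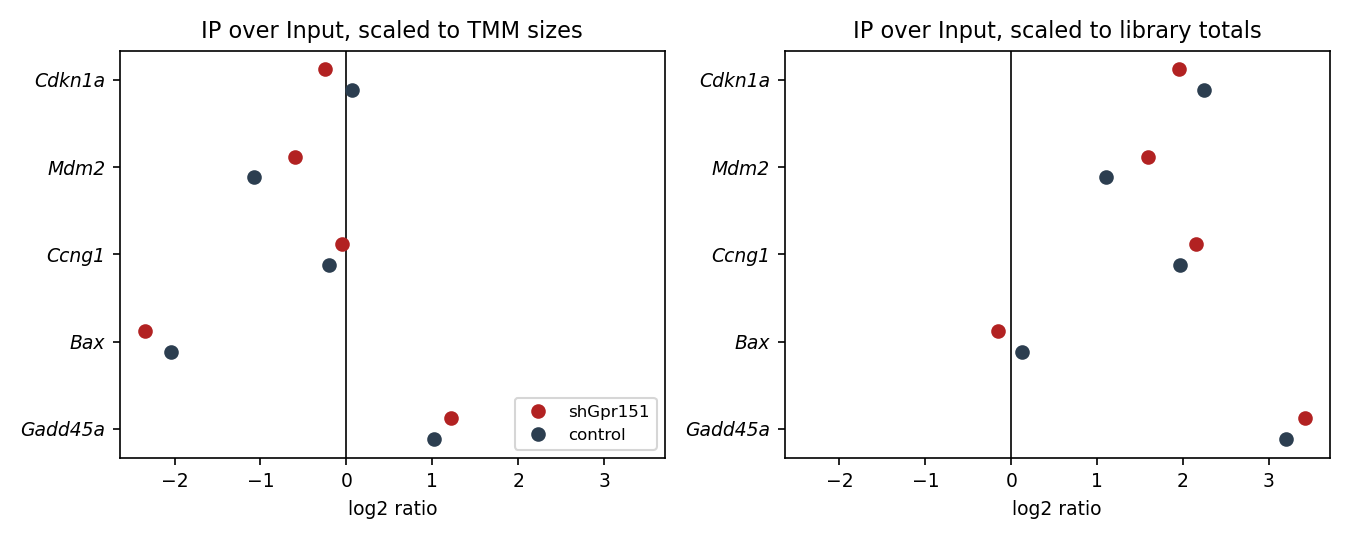
Log2 ratios of IP over Input (x axis) for the 5 p53 targets (y axis) in the libraries labelled shGpr151 and control, scaled to TMM sizes (left) and to library totals (right). Gadd45a lies farthest to the right and Bax farthest to the left on both scales, at 1.22 and -2.35 on TMM sizes in shGpr151.

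Trp53, the gene of p53 itself, was not called between the treatments. IP shGpr151 held 33, 27 and 29 Trp53 counts against 31, 46 and 50 in IP control, with a log2 ratio of -0.19 (-0.59 to 0.22). Input shGpr151 held 10, 14 and 7 against 20, 17 and 12 in Input control, with a log2 ratio of -0.64 (-1.34 to 0.04). Neither was called, and the columns overlapped in IP and in Input. Mdm4, the partner of Mdm2 in restraining p53, summed to 20 counts in IP shGpr151 and 21 in IP control, and to 12 in Input shGpr151 and 23 in Input control, which is too few to have been tested.

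Of 21 listed regulators of p53, 16 were in the table and 10 were tested. Between the IP libraries 1 was called higher and 0 lower, where 8.69% of all tested genes were called, with a list median of 0.12 against 0.00 over all genes. The called gene was Trp53bp1, a DNA damage response protein that binds p53, with 381 counts in IP shGpr151 and 343 in IP control and a log2 ratio of 0.48 (0.26 to 0.69). DESeq2 did not call it (0.46), nor was it called without the first column of IP shGpr151 (0.39) or the second of IP control (0.27). In Input 0 were called higher and 2 lower, where 17.0% of all tested genes were called, with a median of -0.38 against -0.07 over all genes. That median mixes genes with few and many counts. Trp53bp1 had 10 in Input shGpr151 and 14 in Input control, and Crebbp had 738 and 970. The 2 called lower were Sirt1, a deacetylase of p53, at -0.52, which neither DESeq2 nor limma-voom called, and Crebbp, an acetyltransferase that acts on p53, at -0.37 (-0.51 to -0.23). Cop1, a further ubiquitin ligase for p53, had a log2 ratio of -0.10 (-0.47 to 0.27) in IP and was not called. In Input it had 0.58 (-0.31 to 1.50), on 28 counts in Input shGpr151 and 19 in Input control, also not called.

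Of 48 symbols listed as other p53 targets, among them an alias of a gene also listed under its own symbol, 39 were in the table and 29 were tested. The share of all tested genes called was 8.69% in IP and 17.0% in Input. In IP 0 were called higher and 1 lower, with a median of 0.16 against 0.00 over all genes. Rps27l, a ribosomal protein paralog, was the 1 called, at -0.19 (-0.28 to -0.10). Its counts are uncertain as far as reads are shared with its close paralog. In Input 1 was called higher and 2 lower, with a median of -0.34 against -0.07 over all genes. Gpx1, a glutathione peroxidase, was higher, at 0.23 (0.13 to 0.32), and Rrm2b, the p53-induced subunit of ribonucleotide reductase, was lower, at -0.28 (-0.32 to -0.25). Rps27l had -0.09 (-0.13 to -0.06), a call that DESeq2 did not make (-0.07) and that ended at -0.05 with the Input groups fitted alone and at -0.04 without any 1 column of an IP library. Rrm2b stood far higher in Input than in IP, at 2127 against 105 CPM in shGpr151 and 2553 against 84.6 CPM in control. Its log2 ratios of IP over Input on TMM sizes were -6.53 in shGpr151 and -7.09 in control. What its Input counts represent was not tested. Trp53inp2, an autophagy regulator, had 825 counts in IP shGpr151 and 1042 in IP control, with a log2 ratio of -0.01 (-0.14 to 0.12). Bbc3, the gene of Puma, and Sesn2, a stress-inducible regulator of mTORC1, did not pass the filter on low counts. Pmaip1, the gene of Noxa, and Zmat3, an RNA-binding target, were tested with log2 ratios of 0.16 and 0.27 in IP and -0.34 and -0.14 in Input, none called.

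Of 26 listed cyclins, kinases and inhibitors among which Cdkn1a acts, 22 were in the table and 21 were tested. In IP edgeR called 0 higher and 0 lower, as did DESeq2 and limma-voom, with 1 at an unadjusted p under 0.05, a median of 0.00 and single ratios from -0.36 to 0.57, where 8.69% of all tested genes were called. Ccnd1, the D-type cyclin, had 926 counts in IP shGpr151 and 1058 in IP control, a log2 ratio of 0.13 (0.01 to 0.26). Cdk4, its kinase partner, had 0.05 (-0.16 to 0.25), Cdk5, a kinase that works in neurons outside the cell cycle, -0.22 (-0.39 to -0.05), and Cdkn2d, a further CDK inhibitor, 0.03 (-0.14 to 0.20). In Input 0 were called higher and 2 lower, against 17.0% of all tested genes called, with a median of 0.17. Ccna2, cyclin A2, had 16 counts in Input shGpr151 and 37 in Input control, a log2 ratio of -1.19 (-2.13 to -0.31), and E2f1, a transcription factor of the cell cycle, 17 and 37, a log2 ratio of -1.10 (-2.02 to -0.24). DESeq2 called neither, and both calls ended when single columns were left out, with ratios of -1.29 to -1.02 for Ccna2 and -1.29 to -0.80 for E2f1.

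Of 25 listed genes of the BCL2 family and the apoptosome, the partners of Bax, 21 were in the table and 20 were tested, where the share of all tested genes called was 8.69% in IP and 17.0% in Input. In IP 0 were called higher and 1 lower, with a median of -0.02, the 1 being Cycs, cytochrome c, at -0.12 (-0.20 to -0.05), which DESeq2 and limma-voom did not call and which was lost without the last column of IP shGpr151 (-0.13) or the second of IP control (-0.10). In Input 0 were called higher and 3 lower, of which DESeq2 called 1 and limma-voom 2, with a median of -0.03. Among these were Bcl2l1, the survival factor BCL-XL, at -0.40, and Cycs at -0.10 (-0.16 to -0.04), which DESeq2 did not call (-0.07). Vdac2, a channel of the outer mitochondrial membrane, had 0.01 (-0.09 to 0.11) in IP, Tmbim6, an inhibitor of Bax action, 0.01 (-0.15 to 0.16), and Bnip3l, a mitophagy receptor, -0.04 (-0.22 to 0.15).

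Of 9 genes of the GADD45 family and its kinase partners, 8 were in the table and 7 were tested, against an all-gene share called of 8.69% in IP and 17.0% in Input. In IP 0 were called higher and 1 lower, with a median of 0.03; the called gene was Mapk9, a JNK kinase, at -0.61, which DESeq2 and limma-voom did not call. In Input 0 were called higher and 1 lower, with a median of -0.21; it was Mapk8, another JNK kinase, at -0.94 (-1.58 to -0.32) on 34 counts in Input shGpr151 and 66 in Input control, also not called by DESeq2 or limma-voom. Gadd45g, a paralog of Gadd45a, had 392 counts in IP shGpr151 and 425 in IP control, a log2 ratio of 0.21 (0.01 to 0.41), and was not called. Gadd45gip1, which binds GADD45 proteins, had -0.07 (-0.41 to 0.25) and Map2k3, a kinase upstream of p38, -0.36 (-0.67 to -0.05), neither called. Of 9 genes of PP2A and its cyclin G link, 8 were in the table and tested, and edgeR, DESeq2 and limma-voom called 0 between the treatments in IP and 0 in Input, with 1 at an unadjusted p under 0.05 in each. Ppp2r1a, the scaffold subunit, had 0.13 (0.00 to 0.27) in IP, Ppp2ca, the catalytic subunit, 0.05 (-0.12 to 0.23), and the regulatory subunits Ppp2r5b and Ppp2r5c -0.18 and -0.17.

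**Figure D4:**
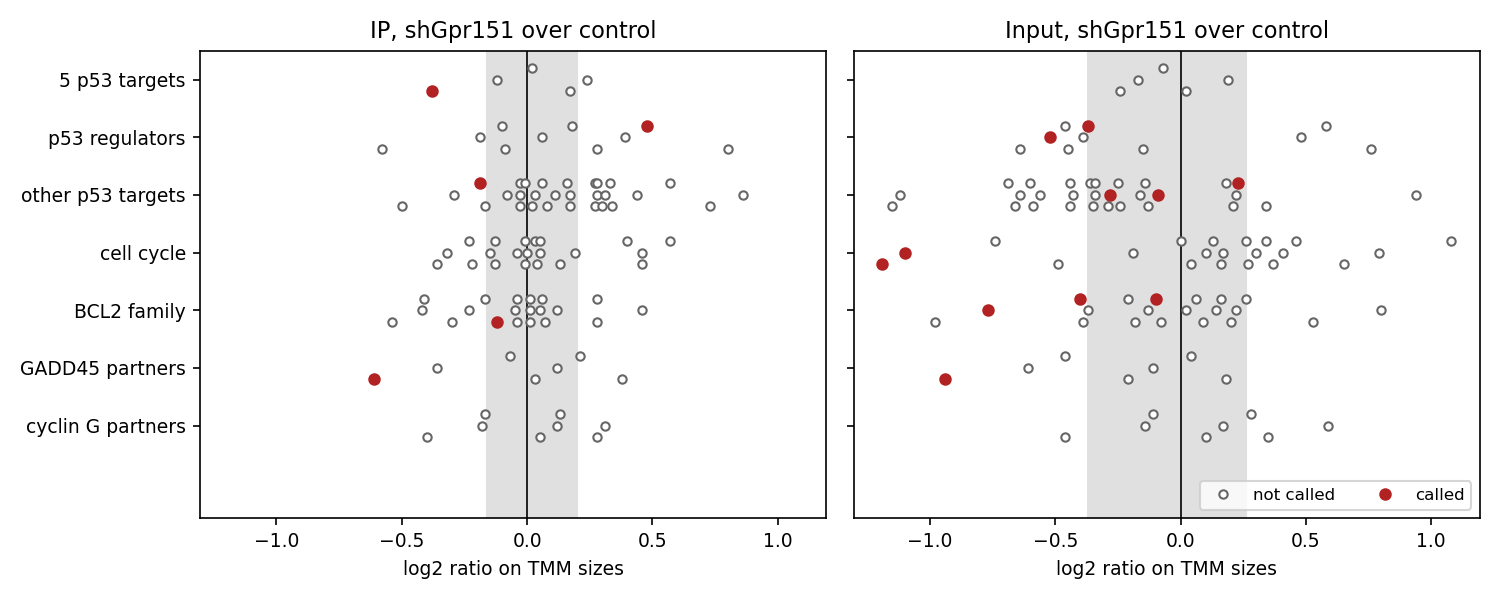
Log2 ratios of shGpr151 over control on TMM sizes (x axis) for each tested gene of the 5 p53 targets and of 6 lists around them (y axis), in IP (left) and Input (right), as labelled. Red points were called by edgeR and the grey band spans the interquartile range of all tested genes; in the top row Cdkn1a in IP, at -0.38, is the 1 red point.

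The genes with the most similar pattern over the 4 libraries were found by the Euclidean distance between centred log2 levels on TMM sizes, among genes with at least 100 counts in each library. With 4 values per gene, many genes come close to any pattern. For Cdkn1a they were Calr, an endoplasmic reticulum chaperone, at a distance of 0.126, Diablo, a mitochondrial promoter of apoptosis, at 0.146, and Rab11b, a GTPase of recycling endosomes, at 0.153, out of 1788 genes. For Bax they were Mrpl57 at 0.028, Ndufab1 at 0.030 and Pold4 at 0.049. For Gadd45a they were Atp6v1b2 at 0.026, Dync1i2 at 0.078 and Msn at 0.082, and for Ccng1 Eif4a1 at 0.065, Cs at 0.071 and Stip1 at 0.091. For Mdm2, with the minimum lowered to its own 72 counts and 2234 genes compared, they were Hdgf at 0.064, Mgp at 0.077 and Tln2 at 0.081.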

How the data were processed

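RNA of 12 samples in 4 groups was measured. Per the labels' protocols, libraries came from a nanopore cDNA-PCR barcoding kit. The submitters' processing notes name minimap2, Salmon, GRCm39 and mm39, without versions. The authors deposited raw counts per gene, not normalized; how strand and shared reads were counted is not given in those sources. Symbols matched 9061 IDs and 12 had none. RefSeq promoter windows are of GRCm38.p6, another build, so no other coordinates are given.

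Columns of a group were summed. Log2 ratios use summed counts over TMM effective sizes with exact conditional binomial (Clopper-Pearson) intervals at 95%, and levels use exact Poisson intervals. Wald intervals on counting error were used for differences of ratios. Calls came from edgeR 4.0.16 (R 4.3.3), filterByExpr at a minimum count of 10, glmQLFit and glmQLFTest, with 1 mean per group; its common BCV of 1.22% reflects noise between columns. DESeq2 1.42.0 and limma-voom (limma 3.58.1) were alternatives. No p-value of a gene is given. The fit was tested on simulated counts. Figures were drawn with matplotlib 3.10.9.

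The members and the gene lists were chosen with earlier results of these data known. Named genes are the 5 members, Gpr151, Trp53 and Mdm4, the 4 tested genes of each pathway list with the highest mean CPM, any list gene called beyond 2-fold between treatments, and the 3 genes nearest to each member in pattern. Sirt1, Bcl2l1, Mapk9, Bbc3, Sesn2, Pmaip1 and Zmat3 were added after their values were seen. The values of 1 further called list gene are not reported here.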

Additional observations from a re-analysis of the deposited data

Results flagged for a closer look

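For 6 of the named genes the shGpr151-over-control log2 ratio differed between IP and Input by edgeR's test of that difference on the columns, which compares these libraries. Of all 8312 tested genes, 14.2% were called by the same test, so nothing is read from the number of named genes called. IP minus Input was 1.50 (0.45 to 2.55) for E2f1, 1.38 (0.43 to 2.33) for Ccna2 and 1.32 (0.60 to 2.04) for Mapk8. It was 0.65 (0.38 to 0.92) for Crebbp, 0.55 (0.34 to 0.77) for Rrm2b and -0.31 (-0.45 to -0.18) for Gpx1. DESeq2 did not call E2f1 (1.46) or Ccna2 (1.34), and those calls, that of Rrm2b and that of Mapk8 ended without single columns, with 1.20 to 1.69 for E2f1, 1.14 to 1.65 for Ccna2, 0.37 to 0.57 for Rrm2b and 1.08 to 1.53 for Mapk8. Rrm2b had 345 counts in IP shGpr151 and 359 in IP control, against 13076 in Input shGpr151 and 16167 in Input control. None of the 5 p53 targets was in this set. With 1 library per group, no difference here has a replicate check, and none of the 6 was called at an assumed BCV of 10% or 20%.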

How the results depend on the processing

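The log2 ratio of Cdkn1a between the IP libraries was negative in every alternative run and called in all but those with 1 library per group and an assumed BCV of 10% or 20%, where 0 of the 5 genes and 1 and 0 of all genes were called. For the other comparisons these settings called 85 and 2 genes in Input, 15 and 1 for the difference between fractions, and 3462 at 20% for IP over Input in control. DESeq2 called 443 genes between the IP libraries. In Input, 1 of the 5 genes, Bax, was called with size factors by the median of ratios, on library totals and with the compared groups alone, and 0 to 1 when a column was left out. Between IP and Input in shGpr151, 2 of the 5 were called at a mean of at least 20 counts and at an assumed BCV of 10% or 20%, and 2 to 4 when a column was left out. The difference between fractions was called for 2 of 5 with size factors by the median of ratios and for 0 to 2 when a column was left out. Directions turned on library totals for IP over Input: Cdkn1a 1.95, Mdm2 1.59 and Ccng1 2.15 in shGpr151, and Mdm2 1.10, Ccng1 1.97 and Bax 0.13 in control. Ccng1 also turned near 0, at -0.04 in Input and 0.17 for IP over Input in shGpr151 at a mean of at least 20 counts, and at 0.03 without a filter. With a column left out Ccng1 ran from -0.17 to 0.19 in Input, -0.20 to 0.09 for IP over Input in shGpr151, -0.39 to 0.01 in control and -0.04 to 0.34 for the difference between fractions, and Gadd45a from -0.07 to 0.07 in IP. The cause was not tested. Samples with the same number did not deviate together (correlations of -0.0118 to 0.0185 over 18 pairs). With the replicate number as a block 736 genes were called in IP, 1405 in Input, 5540 for IP over Input in shGpr151, 5431 for the same in control, and 1187 for the difference between fractions, with the same number of the 5 genes called in each. Because the columns of a group differ by little more than counting noise, neither outcome can test pairing. Few counts limit Mdm2 in Input, where 72 and 86 counts leave the ratio between -0.71 and 0.23. They limit many other genes there too, list medians included. The median gene of the table had 30 counts in Input shGpr151 and 32 in Input control, against 88 in IP shGpr151 and 108 in IP control.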
